A study of Mus musculus with 12 samples.

Results

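The genes described here are those whose transcript level followed tubular injury across the kidneys of Tg26 mice. Outer cortex was taken at 12 weeks of age and its messenger RNA sequenced: 3 Tg26 samples given INT-747, 3 Tg26 samples given nicotinamide riboside (NR), 3 wild-type (WT) samples given INT-747 and 3 WT samples given NR. Tg26 mice carry a defective HIV-1 provirus as a transgene and are a model of HIV-associated nephropathy, INT-747 (obeticholic acid) activates FXR, the nuclear receptor for bile acids, and NR is a precursor of NAD. All 12 samples were treated, and the sources used here state no dose, route, sex or strain. An injury score was taken for each library as the mean of log2(CPM + 1) of Lcn2, Havcr1, Krt20 and Spp1, where CPM is the count per 1000000 counts of the library. Every other gene with a mean of at least 1 CPM over the 6 Tg26 libraries, 13604 of 55450 genes in the table, was correlated with the score over those 6 libraries. The 100 genes of highest Pearson r are called the positive end and the 100 of lowest r the negative end. Because r chose these genes, r, the slope and the order of the 6 Tg26 libraries are given as descriptions and carry no test.

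When the tubule of the kidney is damaged, surviving epithelial cells change their expression within hours to days, and the products serve as markers. Lcn2 encodes the iron-carrier-binding protein NGAL, Havcr1 the phosphatidylserine receptor KIM-1, Krt20 a keratin of the cytoskeleton and Spp1 the secreted phosphoprotein osteopontin. In lasting injury the interstitium gains matrix-producing cells and leukocytes, while the proximal tubule, which depends on mitochondria and fatty acid oxidation for its transport work, lowers its transporters and metabolic enzymes. In HIV-associated nephropathy glomerular collapse is accompanied by microcystic dilation of tubules and interstitial inflammation.

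Total counts ran from 23790167 to 28952177 in the Tg26 libraries and from 22286343 over all 12 libraries. Markers of the proximal tubule, the main cell of the cortex, summed to 17616 to 23591 CPM in Tg26 libraries and 20505 to 24566 CPM in WT libraries over 25 transport genes. Skeletal muscle markers, which would mark admixed tissue, summed to at most 0.829 CPM in any Tg26 library, with Myh4 at 0 in all libraries. The NR-treated Tg26 library of replicate 3 had 5816 counts of Xist and 0 counts of the Y-linked genes Ddx3y, Eif2s3y, Kdm5d and Uty, the pattern of a female mouse, while the other 11 libraries had the male pattern. It therefore stands apart, and the counts of genes, the ends and the list medians are also given without it. The labels number 3 samples per group and do not say more of their origin, so p-values measure the spread between these samples.

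The injury score spread widely among Tg26 kidneys and little among WT kidneys. In rising order it was 2.63 in INT-747 replicate 3, 3.10 in INT-747 replicate 1, 3.60 in NR replicate 3, 5.08 in INT-747 replicate 2, 5.15 in NR replicate 2 and 6.93 in NR replicate 1 of the Tg26 mice. WT libraries ran from 2.61 to 3.47. The score averaged 4.42 ± 1.61 in Tg26 and 2.97 ± 0.289 in WT libraries (SD, n = 6 each). By group it was 3.60 ± 1.3 in Tg26 under INT-747 and 5.23 ± 1.67 in Tg26 under NR, against 2.89 ± 0.0986 in WT under INT-747 and 3.05 ± 0.426 in WT under NR (SD, n = 3 each). The Tg26 scores fall into a lower range of 3 libraries, 2 of which lie within the WT range, and a higher range of 3 libraries that holds both treatments. With 3 libraries in each range, a relation within a range could not be examined, and every r given here is over 6 points that fall into these 2 ranges. In the text that follows, values of the 6 Tg26 libraries are given in this rising order of score.

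The 4 markers did not move as one. Lcn2 had 0.485, 1.93, 0.756, 9.81, 14.9 and 91.4 CPM in the Tg26 libraries, against 0.333 to 1.09 CPM in WT. Havcr1 had 2.95, 4.51, 0.916, 31.1, 12.02 and 69.8 CPM, against 1.36 to 4.68 CPM in WT. Both were above every WT library in the 3 Tg26 libraries of higher score. Krt20 had 0.0808, 0.164, 5.49, 6.59, 17.7 and 23.2 CPM, against 0.124 to 4.52 CPM in WT, and Spp1 had 228, 286, 982, 501, 415 and 1407 CPM, against 193 to 323 CPM in WT. In the female library, NR replicate 3, Spp1 and Krt20 were above the WT range while Lcn2 was within it and Havcr1 below it. Among pairs of markers r over the 6 Tg26 libraries ran from 0.402 for Havcr1 with Spp1 to 0.931 for Lcn2 with Havcr1, and r with the score, of which each marker is a part, was 0.975 for Lcn2, 0.902 for Krt20, 0.889 for Havcr1 and 0.716 for Spp1.

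**Figure D1:**
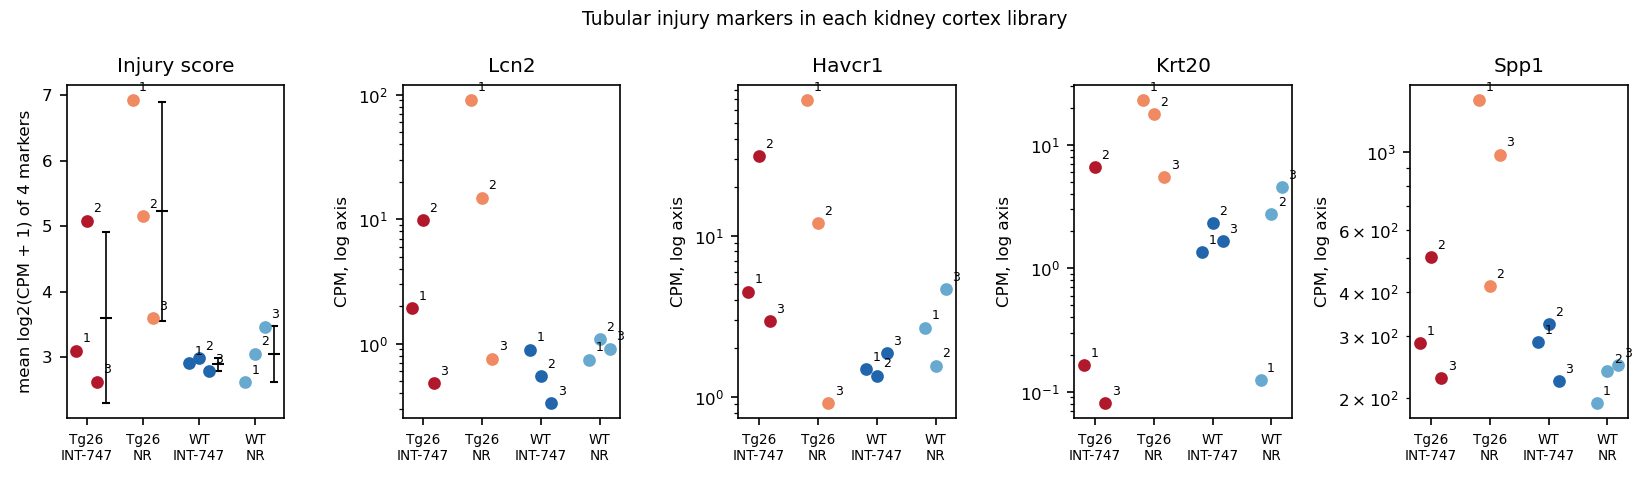
The injury score (left) and the CPM of the 4 markers (log axis) in each library, with Tg26 groups left of WT groups; the black bar beside the score is the mean ± SD of a group. The 3 Tg26 libraries with scores of 5.08 to 6.93 stand above every WT library, and 2 of the other 3 lie within the WT range of 2.61 to 3.47.

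None of the markers passed the test between genotypes in the edgeR quasi-likelihood fit over all 12 libraries with Benjamini-Hochberg adjustment over 15708 genes. The mean log2 fold change of Tg26 over WT across both treatments was 3.87 for Lcn2 (SE 1.08, edgeR adjusted p = 0.11), 2.95 for Havcr1 (SE 0.93, edgeR adjusted p = 0.13), 1.37 for Krt20 (SE 0.90, edgeR adjusted p = 0.44) and 1.06 for Spp1 (SE 0.25, edgeR adjusted p = 0.089). Adding sex as a covariate, called the sex term here, amounts to leaving out the 1 female library. Its injury score, 3.60, was the lowest of the NR-treated Tg26 libraries, against 5.15 and 6.93. That library also had the lowest sum of the 25 proximal tubule transport genes of all 12 libraries, 17616 CPM. Its sum of the 10 loop of Henle genes, 8163 CPM, was the highest. Its circadian clock score, defined with the technical values below, was the lowest of the 6 Tg26 libraries, 0.603. The part of these traits in the changes under the sex term was not tested. The sex term changed the call for Lcn2, to 4.16 (SE 0.79, edgeR adjusted p = 0.026), and for Havcr1, to 3.24 (SE 0.74, edgeR adjusted p = 0.039). Without INT-747 replicate 2 of the Tg26 mice the Krt20 value turned to -0.65.

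Most genes leaned towards the score when counts were scaled to the library total. Of the 13604 genes 75.6% had r above 0, the median r was 0.437, and the median slope was 0.05 log2 per unit of score. An r of at least 0.9 was seen for 1296 genes (9.53%) and of at most -0.9 for 25 genes (0.184%), so that 98.1% of the genes past these limits were positive. Without the female library 3298 genes reached 0.9 and 350 reached -0.9, a split of 90.4% positive, and the median r was 0.663. The lean also depended on the scaling. With TMM scaling, which equalises the bulk of the genes between libraries, 44.5% of the same genes had r above 0, the median r was -0.105 and the median slope was -0.01. An r of at least 0.9 was then seen for 771 genes (5.67%) and of at most -0.9 for 398 genes (2.93%), a split of 66.0% positive. The log2 ratio of TMM scaling to the library total ran from -0.107 to 0.243 over the 6 libraries and had an r of 0.919 with the score. Medians of the ends and of the gene lists are therefore given under both scalings.

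**Figure D2:**
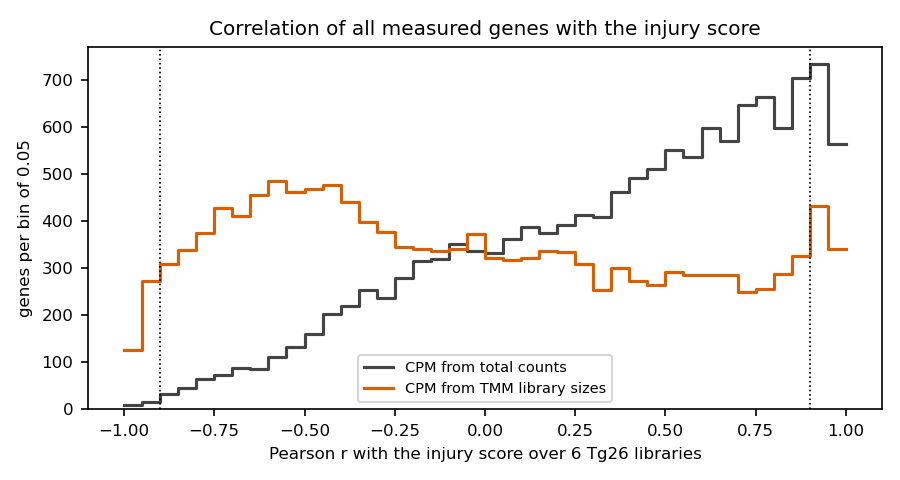
Number of genes by Pearson r with the injury score over the 6 Tg26 libraries, in bins of 0.05, for CPM of the library total and for TMM-scaled CPM; dotted lines mark -0.9 and 0.9. The median moves to -0.105 under TMM, against 0.437 under library totals, and the right tail stays the heavier, with 771 against 398 genes past the lines.

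The positive end consisted of genes of low to moderate abundance with steep slopes. Their r ran from 0.9845 to 0.9997, the median slope was 0.393 log2 per unit of score, against 0.0504 over all genes, and 30 genes had a slope of at least 0.5. The median of their mean level was 8.37 CPM, against 19.6 CPM for all genes, and 99 were protein coding. All 100 were higher in each of the 3 libraries of higher score than in each of the 3 of lower score, which held for 12.9% of all genes, and 36 followed the order of the 6 scores exactly, as 217 of all genes did. At the edge of the set Ccn1, Stx11 and Arpc1b (r of 0.9847, 0.9846 and 0.9845) were inside, and Cldn3, Smg1 and Gm49339 (0.9844, 0.9842 and 0.9842) were outside, so that the limit of 100 genes cuts through a dense range. Under TMM scaling 93 of the 100 had r of at least 0.9. Without the female library r was at least 0.984 in all 100, and without the libraries of lowest and highest score at least 0.938.

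Set against WT, the positive end was near WT level in the Tg26 libraries of lower score and above it in the others. The median difference of log2(CPM + 1) from the WT mean was -0.19, 0.00 and 0.14 in the 3 libraries of lower score and 0.73, 0.77 and 1.52 in the 3 of higher score. The same median over all genes was -0.05, 0.02, 0.09, 0.09, 0.05 and 0.22. In the library of lowest score 1 of the 100 genes was above the highest WT library and 47 were below the lowest, against 19.3% and 28.6% of all genes. In the library of highest score 99 were above the highest WT library, where 54.6% of all genes were also above it. In these whole-cortex samples more cells of a type and more RNA per cell cannot be told apart.

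**Figure D3:**
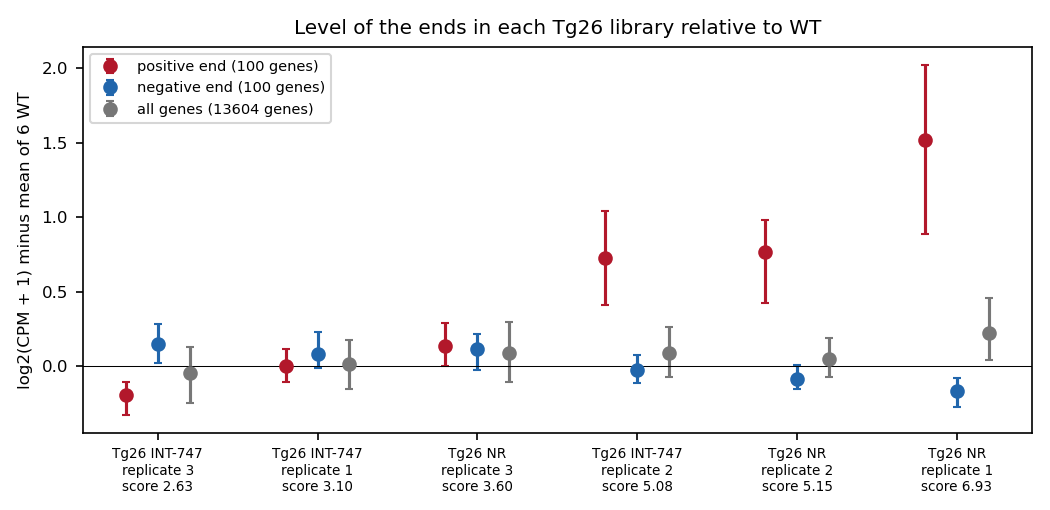
Median (points) and quartiles (bars) of log2(CPM + 1) minus the WT mean in each Tg26 library, placed by injury score, for the positive end, the negative end and all genes. The positive end climbs to 1.52 at the highest score while the negative end moves from 0.15 to -0.17.

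Matrix and protease genes were among the members of the positive end. Mmp2, gelatinase A, which degrades denatured and basement membrane collagen (chromosome 8, 92827291 to 92853420, forward strand, GRCm38), had the highest r of all genes, 0.9997. It had 1.58, 2.501, 3.98, 11.9, 11.6 and 39.6 CPM in the Tg26 libraries, against 1.22 to 2.96 CPM in WT. Mmp14, the membrane-bound protease that activates the Mmp2 proenzyme, had 3.92, 5.17, 9.36, 17.4, 16.7 and 48.5 CPM, against 4.18 to 6.95 CPM in WT. Mgp, the matrix Gla protein, an inhibitor of calcification, had 26.5, 43.3, 47.7, 124, 90.2 and 251 CPM, against 26.7 to 38.6 CPM in WT. In each of the 3 genes the higher-score libraries exceeded all WT libraries. Of 37 measured genes of a fibrosis and matrix list 28 had r of at least 0.9, the median r was 0.945 (0.929 under TMM), and 3, those just named, were in the positive end. Sparc, a collagen-binding glycoprotein just below the limit (r 0.982), had 88.6, 100.7, 104, 163, 145 and 289 CPM, against 71.8 to 89.4 CPM in WT. The summed level of the list was 2326 to 5428 CPM in Tg26, against 2615 to 3786 CPM in WT.

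An acute phase gene and a complement gene had the 2 steepest slopes of the positive end. Serpina3n, a mouse serine protease inhibitor of the acute phase response (chromosome 12, 104406729 to 104414329, forward strand), had the steepest slope of the positive end, 1.01 log2 per unit of score, with 0.768, 1.43, 2.31, 8.18, 7.44 and 36.6 CPM in Tg26 libraries, against 0.870 to 1.98 CPM in WT. Cfi, complement factor I, the protease that inactivates C3b and C4b, had 0.323, 1.15, 2.27, 8.77, 5.63 and 23.4 CPM, against 0.207 to 1.04 CPM in WT. Both were within or below the WT range in the library of lowest score and above it in the 3 libraries of higher score. C3 itself, the central component of the cascade, was outside the positive end at r 0.973 and had 9.94, 26.7, 27.8, 271, 194 and 622 CPM, against 9.196 to 20.3 CPM in WT, a slope of 1.39. Its receptor gene C3ar1 had 0.687, 0.574, 0.796, 2.84, 3.19 and 9.91 CPM (r 0.982), against 0.494 to 1.14 CPM in WT. Of 14 measured complement genes 9 had r of at least 0.9, with a median of 0.954 (0.947 under TMM), and of 8 measured acute phase genes 6 did, with a median of 0.911 (0.903 under TMM).

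Epithelial and cytoskeletal genes were also among the members, and their cell of origin was not tested. Krt19, a keratin of simple and ductal epithelia, had 0.0808, 1.15, 1.59, 6.01, 4.46 and 17.6 CPM, against 0.166 to 0.532 CPM in WT, and its value at the lowest score is 2 counts. Hspb1, the small heat shock protein HSP27 that stabilises actin, had 3.96, 6.35, 8.84, 17.6, 20.6 and 38.6 CPM, against 5.399 to 6.68 CPM in WT, and was the one member of a 16-gene heat shock list with r of at least 0.9 (list median -0.163, -0.446 under TMM and -0.605 without the female library). Ahnak2, a large scaffold protein, had 0.0404, 0.205, 0.159, 1.503, 1.89 and 4.97 CPM, against 0.0449 to 0.304 CPM in WT. In the 3 libraries of lower score Ahnak2 did not exceed the WT range and Hspb1 exceeded it in 1, whereas Krt19 was above it in all but the library of lowest score. Of 28 measured injury genes other than the markers 15 had r of at least 0.9, with a median of 0.914 (0.866 under TMM). S100a6, a calcium-binding protein, had 4.12, 6.19, 5.93, 16.7, 11.9 and 35.9 CPM (r 0.981), against 2.61 to 4.35 CPM in WT. Cd44, the hyaluronan receptor, had 0.929, 2.13, 0.956, 19.3, 16.5 and 34.3 CPM (r 0.940), against 0.539 to 1.48 CPM in WT, and stood at WT level in the female library. Tubb2b, a beta-tubulin, had 5.41, 7.75, 11.4, 23.2, 18.3 and 42.9 CPM, against 4.97 to 11.2 CPM in WT.

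Markers of macrophages and other myeloid cells followed the score as a group. Mrc1, the mannose receptor of tissue macrophages, was a member of the positive end with 2.75, 3.85, 3.98, 10.02, 8.197 and 24.4 CPM, against 3.27 to 5.04 CPM in WT. Of 22 measured myeloid markers 18 had r of at least 0.9, with a median of 0.955 (0.945 under TMM), and their summed level was 104 to 1043 CPM in Tg26, against 83.4 to 149 CPM in WT. Cd14, the lipopolysaccharide co-receptor, had 2.38, 6.07, 6.13, 14.8, 19.6 and 43.5 CPM (r 0.983), and Cx3cr1, the fractalkine receptor, had 1.82, 1.97, 2.19, 4.93, 6.05 and 17.7 CPM (r 0.981), against 3.16 to 6.12 and 1.44 to 2.28 CPM in WT. The ligand of that receptor, Cx3cl1, was itself a member with a shallower slope of 0.22 and 44.7, 46.2, 46.6, 62.5, 60.2 and 85.1 CPM, against 42.2 to 55.9 CPM in WT. Of 9 measured genes of MHC class II antigen presentation 6 had r of at least 0.9, with a median of 0.944 (0.928 under TMM), and H2-DMb1, which helps load peptides, was a member with 4.61, 5.94, 6.49, 11.2, 13.4 and 20.4 CPM, against 3.47 to 5.100 CPM in WT. Their part in the levels of the matrix, complement and injury genes above was not tested.

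The members of this paragraph were chosen after their values were seen, from no fixed list, and stand for themselves only. Tlr2, a receptor for bacterial lipopeptides, had 1.29, 1.43, 1.95, 4.13, 5.296 and 10.8 CPM, against 0.874 to 2.05 CPM in WT. Aim2, the cytosolic DNA sensor of an inflammasome, had 0.444, 0.410, 0.518, 1.92, 2.102 and 4.63 CPM, against 0.587 to 1.33 CPM in WT. Casp4, an inflammatory caspase, had 0.444, 0.656, 0.717, 2.42, 2.02 and 4.35 CPM, against 0.359 to 1.03 CPM in WT. All of these were highest in the library of highest score, and Aim2 was below the lowest WT library in the 3 libraries of lower score. Gsdmd, whose cleaved product forms membrane pores, had 2.34, 3.16, 3.74, 5.05, 5.296 and 10.5 CPM, against 2.05 to 3.77 CPM in WT. P2rx7, the ATP-gated channel upstream of the inflammasome, had 3.15, 3.53, 3.62, 5.76, 6.68 and 10.7 CPM, against 2.44 to 4.34 CPM in WT. Unc93b1, which carries endosomal Toll-like receptors to their compartment, had 10.02, 12.2, 12.5, 20.3, 24.4 and 36.8 CPM, against 8.33 to 13.2 CPM in WT. B2m, the light chain of MHC class I, had 189.8, 214, 239, 295, 288 and 364 CPM, against 181 to 261 CPM in WT, and Ctsd, the lysosomal protease cathepsin D, had 531, 607, 622, 716, 735 and 969.7 CPM, against 533 to 665 CPM in WT. B2m and Ctsd were the abundant genes among those named here and had shallow slopes of 0.21 and 0.18. Arrb2, beta-arrestin 2, was the 1 positive member whose 6 Tg26 libraries (6.87, 7.13, 7.76, 10.98, 11.01 and 19.2 CPM) all exceeded the 6 WT libraries (5.51 to 6.24 CPM), which held for 1.03% of all genes.

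Other named members of the positive end span several functions. Uhrf1, a factor of maintenance DNA methylation in dividing cells, had 0.687, 1.31, 1.15, 3.67, 4.67 and 11.4 CPM, against 1.56 to 2.04 CPM in WT. Of 17 measured cell cycle genes 9 had r of at least 0.9 (median 0.903, 0.867 under TMM), among them Cdk1 (r 0.983) with 0.768, 0.984, 0.876, 1.79, 2.102 and 3.63 CPM, against 0.608 to 1.62 CPM in WT. Uhrf1 was below the WT range in the 3 libraries of lower score, and both genes were above it in the 3 of higher score. Pltp, the phospholipid transfer protein and a target of FXR, had 4.16, 6.85, 6.85, 13.1, 14.9 and 35.2 CPM, against 3.73 to 7.45 CPM in WT, and was the 1 of 10 measured FXR target genes with r of at least 0.9. Pdgfb, a growth factor for mesenchymal cells, had 7.72, 9.22, 12.5, 16.2, 16.98 and 28.5 CPM, against 10.7 to 15.7 CPM in WT, and its receptor gene Pdgfrb had 15.3, 23.3, 26.1, 37.3, 31.5 and 67.8 CPM (r 0.966), against 17.02 to 23.1 CPM in WT. Pdgfb was below the WT range in the 2 libraries of lowest score and above it in the 3 of highest. Adam11, Cpxm1, Arhgap45, Dapp1, Akna and Trpv2 completed the named members, with slopes of 0.40 (Trpv2) to 0.64 (Cpxm1), and Akna, for example, had 2.95, 3.197, 4.101, 7.68, 7.99 and 14.2 CPM, against 3.205 to 4.801 CPM in WT. In all 18 genes named for slope or r the library of highest score was the highest of all 12 libraries. That it led the Tg26 libraries goes with how these genes were chosen. In that library 54.6% of all genes were above the highest WT library.

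**Figure D4:**
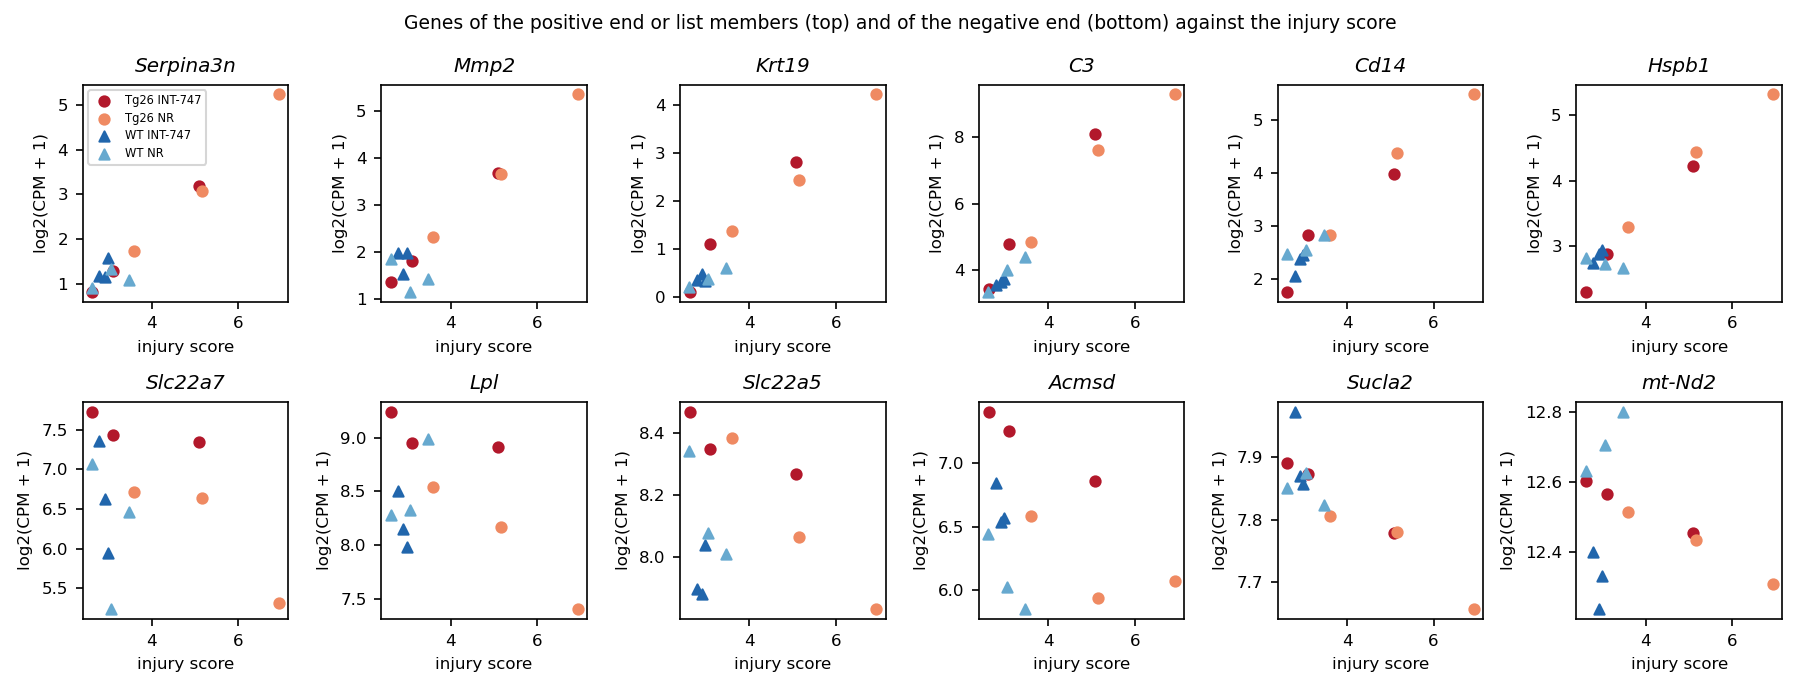
CPM (log axis) against injury score for 6 genes that followed the score (Serpina3n, Mmp2, Krt19, C3, Cd14, Hspb1, top) and 6 that ran against it (Slc22a7, Lpl, Slc22a5, Acmsd, Sucla2, mt-Nd2, bottom); circles are Tg26 and triangles WT libraries. Mmp2 climbs from 1.58 CPM at a score of 2.63 to 39.6 CPM at 6.93, while Sucla2 moves between 236 and 201 CPM.

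Promoter sequences of the ends were searched for 6 motifs on both strands, N standing for any base. The letters were set after the data had been seen, and the further motifs CRE and NRF1 were also tried and are not reported. Promoters are RefSeq windows of 250 bases before to 50 bases after a transcript start (GRCm38.p6), and 77 of the 100 positive genes matched 102 promoters. The NF-kB letters, GGG and TTTCC with any 2 bases between, were in 8.82% of these promoters, in 1.12% of 89 negative-end promoters and in 1.66% of 13195 promoters of measured genes. They were found in 8 genes, namely Il16, Serpina3n, Map1a, Casp4, Ppp1r18, Stap2, B2m and Gbp5. Some genes, such as Casp4, have overlapping promoters, and counted by matched gene the shares were 10.4%, 1.39% and 2.02%. AP-1 letters TGANTCA were in 10.8%, 4.49% and 5.19% of the same promoter sets, and STAT letters TTCNNNGAA in 4.90%, 5.62% and 6.82%. The letters searched for HNF1 (GTTAAT and ATT with any base between) and HNF4 (CAAAGTCCA) were in none of the promoters of either end and in 0.28% and 0.447% of all. A PPAR element, a direct repeat of AGGTCA with 1 base between, was in 1 promoter of the ends, that of the negative member Isca1, and in 0.0455% of all. A match is a description of letters only. The promoter sets also differed in composition. Median GC content was 56.5% in the positive end, 62.3% in the negative end and 60.7% over measured genes. The median number of CG pairs was 10.5, 21 and 20. The part of this composition in the motif shares was not tested. The shown promoters are 3 with NF-kB letters from the positive end and the 1 with the PPAR element from the negative end, each 5′ to 3′ with matches in capitals: Serpina3n at chr12:104406458-104406757 (forward), B2m at chr2:122147437-122147736 (forward), Gbp5 at chr3:142496684-142496983 (forward, with the NF-kB match at base 174 and STAT matches at bases 6 and 199) and Isca1 at chr13:59769740-59770039 (reverse).
Serpina3n: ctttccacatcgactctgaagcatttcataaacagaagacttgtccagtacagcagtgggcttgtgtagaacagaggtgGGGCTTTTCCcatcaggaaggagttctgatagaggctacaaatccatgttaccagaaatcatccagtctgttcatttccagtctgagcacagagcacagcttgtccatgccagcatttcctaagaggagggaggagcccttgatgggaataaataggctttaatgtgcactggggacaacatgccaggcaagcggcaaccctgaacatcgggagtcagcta
B2m: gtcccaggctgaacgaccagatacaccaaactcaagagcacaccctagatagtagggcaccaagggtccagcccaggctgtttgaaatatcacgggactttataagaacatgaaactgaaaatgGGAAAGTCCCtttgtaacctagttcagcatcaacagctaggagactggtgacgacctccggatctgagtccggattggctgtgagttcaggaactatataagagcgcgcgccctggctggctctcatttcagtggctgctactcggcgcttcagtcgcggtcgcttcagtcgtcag
Gbp5: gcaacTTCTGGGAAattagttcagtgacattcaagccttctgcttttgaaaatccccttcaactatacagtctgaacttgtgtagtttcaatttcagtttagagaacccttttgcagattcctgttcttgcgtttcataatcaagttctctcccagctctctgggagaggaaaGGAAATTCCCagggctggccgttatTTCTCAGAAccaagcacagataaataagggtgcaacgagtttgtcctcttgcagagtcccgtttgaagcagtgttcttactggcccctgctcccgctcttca
Isca1: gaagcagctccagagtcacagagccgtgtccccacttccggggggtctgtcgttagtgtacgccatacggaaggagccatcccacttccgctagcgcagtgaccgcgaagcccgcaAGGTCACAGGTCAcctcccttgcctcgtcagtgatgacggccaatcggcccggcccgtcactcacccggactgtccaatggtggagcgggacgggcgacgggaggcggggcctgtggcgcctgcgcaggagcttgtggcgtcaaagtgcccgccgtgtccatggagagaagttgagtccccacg
Serpina3n had the steepest slope of the positive end, and B2m one of the shallower ones, so the shared letters went with different slopes. Of the NF-kB pathway itself, a list of 17 measured chemokine, cytokine and NF-kB genes had 12 with r of at least 0.9 and a median of 0.946 (0.937 under TMM), among them Nfkb2, a subunit precursor, with 10.4, 13.04, 13.6, 21.04, 23.1 and 28.8 CPM (r 0.981), against 9.16 to 13.8 CPM in WT. Socs3, a feedback inhibitor of cytokine signalling, had 0.929, 1.804, 1.47, 4.22, 4.79 and 15.2 CPM (r 0.983), against 0.570 to 2.02 CPM in WT. The summed level of that list was 197 to 611 CPM in Tg26, against 255 to 623 CPM in WT.

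Of the interferon-stimulated genes 7 of 23 had r of at least 0.9, with a median of 0.801 (0.711 under TMM). Without the female library the medians of the injury, acute phase, complement, matrix, myeloid, MHC class II, cytokine, cell cycle and interferon lists were 0.837 (interferon) to 0.984 (myeloid). Tap1, the peptide transporter for MHC class I, had 5.53, 6.39, 7.72, 11.6, 11.9 and 15.1 CPM (r 0.982), against 4.33 to 7.700 CPM in WT. Lymphocyte markers were sparse. Only Cd4 and Lck of 14 T cell and NK markers passed 1 CPM, and Cd4 had 0.404, 1.19, 1.31, 3.05, 3.99 and 6.32 CPM (r 0.979), against 0.391 to 0.807 CPM in WT. Of 10 B and plasma cell markers 5 were measured, 1 of them (Ighm) with r of at least 0.9, and Igkc had 20.5, 57.96, 2.15, 74.97, 145 and 133 CPM (r 0.609), against 3.54 to 44.6 CPM in WT. Of 8 neutrophil markers 2 were measured and 0 had r of at least 0.9, while Elane, Mpo and Ngp were at 0 in all libraries.

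Among nephron and vessel markers few genes reached the limit. Of 15 endothelial markers 1, Cd34, had r of at least 0.9 (median 0.732, 0.502 under TMM and 0.920 without the female library). Of 14 measured podocyte markers 1, Nes, had r of at least 0.9 (median 0.376, -0.011 under TMM and 0.824 without the female library), with 19.7, 23.2, 28.8, 35.6, 32.7 and 45.6 CPM, against 13.2 to 17.9 CPM in WT, so that all Tg26 libraries exceeded all WT libraries. The podocyte list summed to 419 to 817 CPM in Tg26, against 404 to 526 CPM in WT. Markers of the loop of Henle, distal convoluted tubule, principal cell and intercalated cell had 0 genes past either limit over the 6 libraries, but their medians depended on the female library. They were -0.090 for the loop of Henle, 0.00 for the distal convoluted tubule, 0.411 for principal cells and 0.144 for intercalated cells, against -0.388, -0.211, 0.170 and -0.107 under TMM and 0.382, 0.732, 0.828 and 0.775 without that library. Ribosomal protein genes had a median r of 0.637, which was 0.061 under TMM and 0.855 without the female library.

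**Figure D5:**
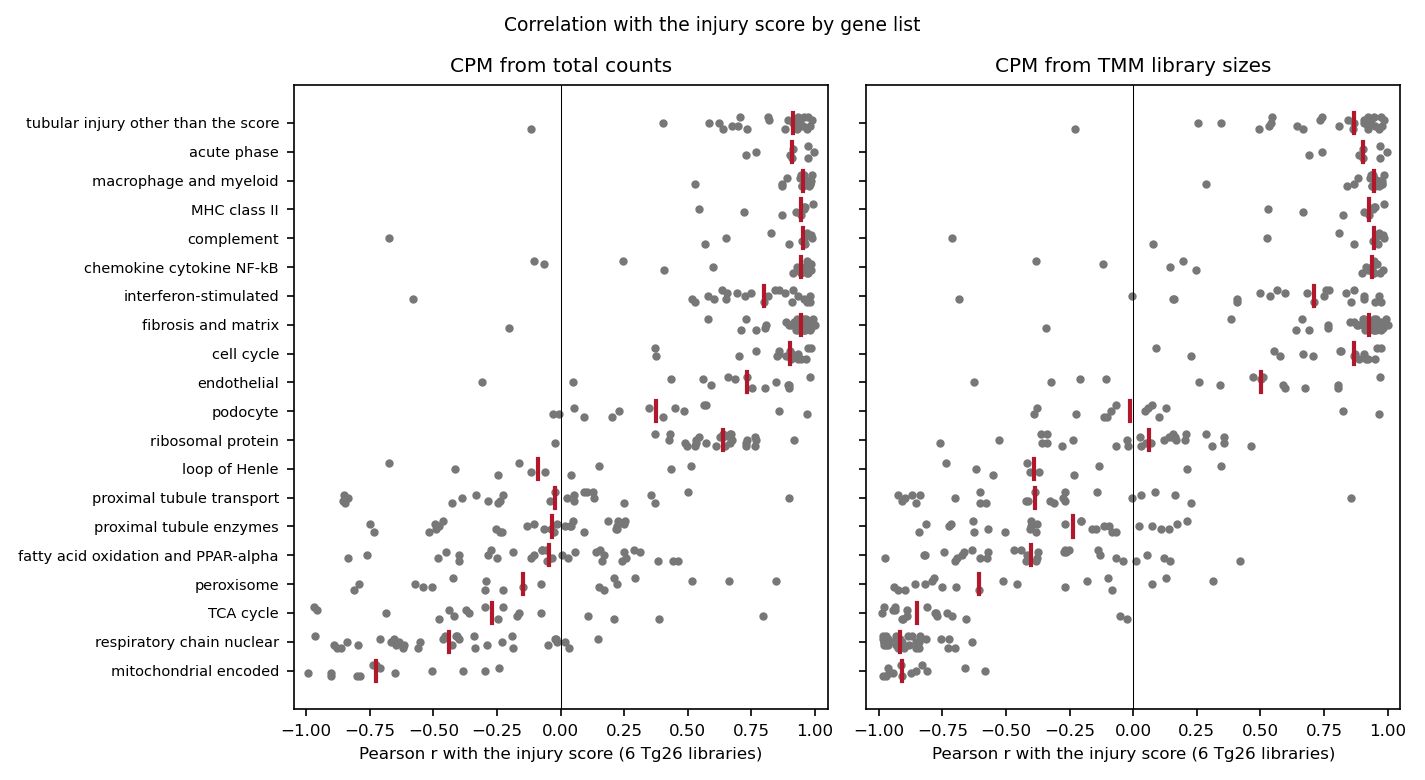
Pearson r with the injury score over 6 Tg26 libraries for each measured gene (points) of the gene lists, under library totals and under TMM scaling, with the list median as a red bar. Fibrosis, macrophage and complement lists crowd near 1 under both scalings, and the respiratory chain list has a median of -0.440, or -0.918 under TMM.

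The negative end was made of more abundant genes with shallow slopes. Its r ran from -0.998 to -0.802, its median slope was -0.065 log2 per unit of score, and 25 genes reached -0.9. The median of the mean level was 59.1 CPM, 90 genes were protein coding and 4 are encoded in mitochondrial DNA. In 66 of the 100 all 3 libraries of higher score were below all 3 of lower score, as in 1.53% of all genes. At the edge Dera, Gm21981 and mt-Cytb (r of -0.806, -0.804 and -0.802) were inside, and Slc22a26, Frmpd3 and Bglap3 (-0.802, -0.801 and -0.800) were outside. Under TMM all 100 kept r below -0.8, between -0.994 and -0.836, and 79 were at most -0.9. TMM lowered r over all genes, however, and 35 of the 100 stayed among the 100 lowest. Without the libraries of lowest and highest score the median r of the members was -0.771 and the highest 0.320. The median difference from the WT mean was 0.15, 0.08, 0.12, -0.03, -0.09 and -0.17 log2, so these genes were slightly above WT at low score and slightly below it at high score, and 51 of them were below the lowest WT library in the library of highest score, against 6.03% of all genes.

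Transport and lipid genes were among the members of the negative end. Slc22a7, the organic anion transporter OAT2, which is also on the list of FXR targets, had 211, 172, 104, 161, 98.6 and 38.9 CPM in Tg26 libraries, against 36.8 to 163 CPM in WT, a slope of -0.46. Lpl, lipoprotein lipase, had 604, 493, 372, 481, 288 and 169 CPM, against 252 to 505 CPM in WT. Slc22a5, the carnitine transporter OCTN2, had 354, 325, 334, 307, 267 and 227 CPM, against 235 to 324 CPM in WT. For these 3 the library of lowest score was above the WT range, and the library of highest score was below it for Lpl and Slc22a5 and within it for Slc22a7. Slc22a7 and Lpl rested on the extremes of the score, since r without the libraries of lowest and highest score was -0.27 and -0.43. Slc16a4, a monocarboxylate transporter, had 142, 108, 150.5, 106, 86.3 and 74.6 CPM, against 93.05 to 108 CPM in WT, and Lrp2, the endocytic receptor megalin, had 2018, 2233, 1996, 2029, 1827 and 1478 CPM, against 1692 to 2108 CPM in WT. Its partner Cubn, cubilin, named after its values were seen, had 577, 506, 565, 499, 533 and 414 CPM, against 419.9 to 599 CPM in WT. These 4 transport genes (Slc22a7, Slc16a4, Lrp2 and Cubn) were the members from a list of 25, in which 0 genes reached 0.9 in either direction and the median r was -0.021 (-0.385 under TMM and -0.526 without the female library). The enzymes of the proximal tubule had a median r of -0.033 over 28 genes (-0.237 under TMM and -0.553 without the female library), none of them at either end.

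Other members touched NAD, hormone and lipid pathways. Acmsd, which diverts tryptophan breakdown away from NAD synthesis, had 168, 152, 94.8, 115, 60.5 and 66.3 CPM, against 56.8 to 113 CPM in WT. It was above the WT range in the 2 libraries of lowest score and in 1 of the others, and was the 1 member from a list of 26 measured NAD genes. Acsl3, a long-chain acyl-CoA synthetase, had 24.97, 19.5, 24.6, 16.2, 14.8 and 15.6 CPM, against 14.1 to 20.6 CPM in WT, and Thrb, thyroid hormone receptor beta, had 35.3, 31.6, 30.2, 29.1, 22.5 and 24.4 CPM, against 21.7 to 28.9 CPM in WT. Hsd3b4, a hydroxysteroid dehydrogenase, had 38.2, 44.7, 49.4, 36.2, 28.9 and 23.8 CPM, against 12.5 to 32.4 CPM in WT. Thrb and Hsd3b4 were above the WT range in the 4 libraries of lowest score and within it in the other 2. Chrdl1, an antagonist of bone morphogenetic proteins, had 7.11, 4.26, 2.99, 3.84, 1.89 and 1.35 CPM, within the WT range of 0.608 to 10.01 CPM, and Gadd45g, a stress-induced growth arrest gene, had 66.98, 108, 73.1, 73.6, 40.2 and 29.8 CPM, against 36.6 to 79.8 CPM in WT. Fam177a had the steepest negative slope, -0.73, with 4.61, 5.29 and 2.75 CPM in the lower-score libraries and a listed value of 0 in the 3 others. WT libraries ran from 0 to 7.18 CPM, and a listed 0 can be a failed estimate of the counting model.

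Mitochondrial genes of the negative end had shallow slopes. Isca1, which builds mitochondrial iron-sulfur clusters (chromosome 13, 59755409 to 59769810, reverse strand), had the lowest r, -0.998, with 108, 105, 104, 97.00, 96.2 and 88.6 CPM, against 90.1 to 96.9 CPM in WT. Sucla2, a subunit of succinyl-CoA ligase, had 236, 234, 223, 219, 219 and 201 CPM, against 226 to 250.4 CPM in WT, and Dld, the shared dehydrogenase of pyruvate and oxoglutarate complexes, had 390.2, 368, 356, 351, 340.4 and 317 CPM, against 352 to 381 CPM in WT. In both genes the library of highest score was below every WT library. Uqcrfs1, the Rieske protein of complex III, had 329, 329.8, 326, 314, 302 and 291 CPM, against 318 to 339 CPM in WT, and Ndufs1 of complex I had 407, 379.8, 364, 376, 359 and 337 CPM, against 369 to 405 CPM in WT. Atp5b, the catalytic subunit of ATP synthase, had 3177, 3145, 3167, 2987, 3137 and 2862 CPM, against 3184 to 3290.4 CPM in WT. Of the genes in mitochondrial DNA mt-Nd2 had 6217, 6062, 5844, 5606, 5528 and 5072 CPM, against 4819 to 7135 CPM in WT, and mt-Atp6 had 905, 889, 943, 841, 841 and 696 CPM, against 802 to 1119 CPM in WT. For both transcripts the WT range was wider than the Tg26 range.

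Metabolic lists leaned negative, and more so under TMM scaling, which also moved r down over all genes. Over all genes the median r was 0.437, against -0.105 under TMM. An r of at most -0.9 was seen for 0.184% of all genes, against 2.93% under TMM. Of 34 nuclear genes of the respiratory chain 1 had r of at most -0.9 and 20 did under TMM, with medians of -0.440 and -0.918, and 5 were in the negative end. Of 18 genes of the TCA cycle 2 had r of at most -0.9 and 7 did under TMM, with medians of -0.27 and -0.85. Of 13 genes of mitochondrial DNA 3 and, under TMM, 7 did, with medians of -0.726 and -0.907, and 4 were in the negative end. Without the female library the medians of these 3 lists were -0.481, -0.342 and -0.733. The mitochondrial share of all counts, which such genes set, ran from 7.94% to 9.97% in Tg26 libraries and had an r of -0.667 with the score, and its part in these results was not tested. For fatty acid oxidation genes the sign depended on the setting, with a median of -0.045, -0.400 under TMM and 0.429 without the female library. Over the 6 libraries 0 of 32 were past either limit and 1 gene, Crat, carnitine acetyltransferase, was in the negative end. Crat had 242, 227, 252, 218, 216 and 207 CPM, against 218 to 300.2 CPM in WT. All 32 were nevertheless lower in Tg26 than in WT by fitted mean log2 fold change (median -0.38), and 0 of them passed the edgeR test, against 17 with the sex term, where 3.3% of all genes were called lower.

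The positive end was on average higher in Tg26 than in WT, but no member passed the test. The contrast uses the same Tg26 libraries that chose the genes, so its values describe and do not stand apart from the choice. Averaged over both treatments 88 of the 100 had a fitted value above 0, against 50.7% of all genes tested, and the median log2 fold change was 0.64, against 0.00 for all. With edgeR 0 of the 100 were called higher, where 0.134% of all genes were. At an unadjusted p under 0.05 56 were higher and 1 lower, against backgrounds of 11.1% and 8.92%. DESeq2 called 26 of them higher (background 4.2%) and limma-voom 0 (background 0.0446%). With the sex term 40 were called higher (background 4.54%) and 91 had a fitted value above 0. That term in effect leaves out the NR-treated Tg26 library of lowest score, 3.60, and keeps those of 5.15 and 6.93. Because the members were chosen on this score, nothing on genotype or sex is read from the larger count.

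Among the 18 positive members named for slope or r, Krt19 had the largest mean log2 fold change of Tg26 over WT, 3.57 (SE 0.87, edgeR adjusted p = 0.093). Cfi had 2.99 (SE 0.82, edgeR adjusted p = 0.1), Serpina3n 2.31 (SE 0.72, edgeR adjusted p = 0.13) and Mmp2 2.03 (SE 0.61, edgeR adjusted p = 0.12). At the other extreme Trpv2 had -0.02 (SE 0.39, edgeR adjusted p = 0.98). With the sex term 12 of the 18 passed, where 4.54% of all genes were called higher and 3.3% lower. The edgeR adjusted p became 0.03 for Krt19, 0.044 for Cfi, 0.042 for Serpina3n and 0.04 for Mmp2. The 18 were chosen for slope or r in the same Tg26 libraries, so these values do not stand apart from the choice. Krt19 averaged 5.15 ± 6.496 CPM in Tg26, against 0.326 ± 0.127 CPM in WT (SD, n = 6 each), so the SD within Tg26 exceeded the mean. Mmp2 averaged 11.8 ± 14.3 CPM in Tg26, against 2.21 ± 0.724 CPM in WT (SD, n = 6 each).

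In the negative end 1 member was called lower (background 0.312%) and 0 higher with edgeR. It was the noncoding RNA gene Gm15889, with 40.4, 39.5, 43.4, 39.5, 37.1 and 34.2 CPM in Tg26 libraries, against 52.5 to 68.9 CPM in WT, a mean log2 fold change of -0.64 (SE 0.10, edgeR adjusted p = 0.032). All 6 Tg26 libraries were below all 6 WT libraries, as for 3 negative members and 0.265% of all genes. Catalase, Cat, the peroxisomal enzyme that breaks down hydrogen peroxide, was another of these, with 1221, 1171, 1210.4, 1140.1, 1207 and 1042 CPM, against 1321 to 1484 CPM in WT. At an unadjusted p under 0.05 14 negative members were lower (background 8.92%) and 3 higher (background 11.1%). DESeq2 called 4 lower (background 3.41%) and 2 higher (background 4.2%). With the sex term 4 were called lower (background 3.3%) and 1 higher (background 4.54%). The counts called lower by DESeq2 and with the sex term are close to the background. For the mean of both treatments 4 of 658 list genes tested (0.608%) were called with edgeR, all higher in Tg26, namely S100a9, Gbp3, Nes and Sdf2l1. Of all genes tested 0.134% were called higher and 0.312% lower. Under INT-747, where 0.267% of all genes were called, another 4 list genes were called (0.608%). They were the heat shock list genes Chordc1, Hsph1 and Hspa2, higher, and the ribosomal protein gene Rpl3, lower. None of these 8 genes, some of which are named after their values were seen, is a member of either end.

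Within each treatment no member was called with edgeR. Under INT-747, 0.267% of all genes were called and 15.3% had an unadjusted p under 0.05, of the positive end 1 was higher at that level, and of the negative end 8 were higher and 1 lower. Under NR 0.0% of all genes were called and 20.7% had an unadjusted p under 0.05, with 64 positive members higher and 1 lower, and 27 negative members lower and 2 higher. Under NR DESeq2 called 36 positive members higher (background 4.27%) and 6 negative members lower (background 2.01%). Under INT-747 it called 0 positive members, and 2 negative members higher (background 1.84%) and 1 lower (background 2.03%), close to the background. For the difference between these genotype differences 0.0% of all genes were called and 15.5% had an unadjusted p under 0.05. The scores of the Tg26 groups differ, and the members were chosen on that score, so nothing is read from these directions.

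The same relation was then examined in the 6 WT libraries, which had no part in the choice. The WT scores span 2.61 to 3.47, a much narrower range than in Tg26, and Lcn2 stayed at 0.333 to 1.09 CPM. Clock output genes had a median r of -0.727 with the WT score, and clock genes of opposite phase 0.741. The part of the clock in the WT relation was not tested. A lack of calls in WT therefore does not decide whether the members follow injury there. In an edgeR fit with the score as covariate 96 positive members and 100 negative members could be tested among 15163 genes, and 0 were called, where 0.0198% of all genes were. At an unadjusted p under 0.05 5 positive members had slopes above 0 and 4 below, and 6 and 2 of the negative end, against a background of 10.6% over both directions. DESeq2 called 3 members, where 1.69% of the genes with an adjusted p were called, so this count is near the background. As a description, r over the WT libraries was above 0 in 52 of the 100 positive members (median 0.044), against 51.5% of all genes, and below 0 in 50 of the negative members (median -0.022). The smallest p-values among the members were those of Hsd17b7, Arnt2 and Gjb2. Arnt2, a partner of bHLH-PAS transcription factors, had r of 0.97 in WT and 0.994 in Tg26, while Hsd17b7, of cholesterol synthesis, and Gjb2, the gap junction protein connexin 26, had r of 0.85 and 0.88 in WT, against -0.876 and -0.882 in Tg26, the opposite sign.

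Technical values of the 6 Tg26 libraries moved with the score to different degrees, and their part in the results was not tested. Total counts had an r of 0.615 with the score, the share of the 10 most abundant genes, 13.96% to 18.67%, an r of -0.589, and a circadian clock score (mean log2 level of clock output genes minus that of genes of opposite phase), 0.603 to 3.26, an r of 0.313. The highest share of abundant and mitochondrial transcripts and the lowest clock score were in the female library. In rising order of injury score the clock score of the Tg26 libraries was 2.28, 2.92, 0.603, 2.45, 3.26 and 2.67. In WT libraries it was 0.708, -0.111 and 0.201 under INT-747 and 3.02, 0.215 and -0.477 under NR. Its part in the differences between Tg26 and WT was not tested.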

How the data were processed

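Expected counts per gene, whole numbers in the table deposited by the authors, were made with STAR 2.7.0f and RSEM 1.3.1 on mm10 after bcl2fastq 2.17 and cutadapt 1.18, per the submitters' processing notes, from stranded poly-A libraries, per the labels' protocols. All 55450 gene IDs matched GENCODE release 21 (GRCm38), used for names and positions, and 0 columns were left unused. CPM used library totals and a pseudocount of 1 on the log2 scale. Totals of 22286343 to 28952177 counts limit the precision for genes with few counts. edgeR 4.0.16 quasi-likelihood fits (robust, TMM, low counts filtered, 4 group means, 12 libraries) gave the genotype contrasts and, in 6 WT libraries, the slope on the score, with Benjamini-Hochberg adjustment over all genes tested and a threshold of 0.05. DESeq2 1.42.0, limma 3.58.1 (voom), a replicate block, a sex term, other scalings and left-out libraries were alternatives. R 4.3.3 and Python 3.11.15 were used, and the fits were tested on simulated data. The members, gene lists and rules were chosen with earlier results of these data known. Named genes were the 4 markers, the 15 steepest slopes and 5 extreme r at each end without predicted genes and pseudogenes, up to 4 genes of largest absolute r per list, the 3 genes either side of each limit, the called members and the 3 members of smallest p for the WT slope. Genes outside this rule are marked in the text as chosen after their values were seen.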

Additional observations from a re-analysis of the deposited data

Results flagged for a closer look

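In 2 named genes every Tg26 library lay above every WT library under INT-747 and below every WT library under NR, as 43 of 13604 genes (0.316%) did, while 127 (0.934%) showed the opposite pattern. The mitochondrial gene mt-Nd2, a member of the negative end, had 6062, 5606 and 6217 CPM in Tg26 under INT-747 (replicates 1, 2 and 3), against 4819 to 5394 CPM in WT. Under NR it had 5072, 5528 and 5844 CPM in Tg26, against 6338 to 7135 CPM in WT. The difference between the genotype differences, INT-747 minus NR, was 0.681 on the log2 scale (SE 0.191, edgeR adjusted p = 0.243) and did not pass the threshold. The mitochondrial chaperonin gene Hspd1, a heat shock list gene outside both ends, had 857, 845 and 963 CPM in Tg26 under INT-747, against 711 to 787 CPM in WT. Under NR it had 613, 665 and 524 CPM in Tg26, against 700.0 to 789 CPM in WT. The corresponding difference was 0.726 (SE 0.191, edgeR adjusted p = 0.239), again short of the threshold.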

How the results depend on the processing

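Membership at the edge of the ends depended on many settings. Genes with r of at least 0.9 and at most -0.9 numbered 1296 and 25. They were 758 and 398 with TMM sizes applied to the CPM minimum as well, and 783 and 333 with DESeq2 size factors, with 35 and 34 of the negative end kept among the 100 lowest. A minimum of 10 CPM left 603 genes at 0.9 and kept 44 of the positive end, and no minimum kept 60 of the negative end. Spearman rho gave 38 genes at -0.9 and kept 36 of the positive end, and centring within treatment gave 77 and kept 30 of the positive and 36 of the negative end. Leaving Lcn2, Havcr1, Krt20 or Spp1 out of the score kept 47, 23, 29 and 48 of the positive end. Without the female library there were 3298 and 350 genes, with 26 and 17 members kept, and without the 2 libraries farthest from the median score 632 and 194 genes, with 35 and 13 kept. Leaving out 1 library at a time, genes at 0.9 ranged from 599 (without Tg26 NR replicate 1) to 3298, genes at -0.9 from 50 to 350, positive members kept from 26 to 62 and negative members kept from 17 to 70. The r of Rpl5 turned to -0.237 (TMM) and -0.145 (DESeq2 factors), and that of Entpd5 to 0.32 without the 2 farthest libraries.

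For the genotype mean, 21 genes were called higher and 49 lower. With no filter 32 were higher, with limma-voom 7 and 24, with DESeq2 660 and 535 (26 positive members higher, 2 negative members higher and 4 lower), and with the sex term 713 and 519 (40, 1 and 4). Under INT-747, 18 and 24 genes were called, 28 higher with no filter, 249 and 276 with DESeq2, and 84 and 105 with the sex term. Under NR, 0 and 0 became 4 and 2 with no filter, 657 and 310 with DESeq2, and 285 and 55 with the sex term. For the interaction DESeq2 called 175 and 72. Same-numbered samples had correlations of 0.012, 0.121 and 0.097 under INT-747 and 0.041, -0.218 and 0.188 under NR. Samples of different number had -0.114 to 0.029 under INT-747 and -0.264 to 0.330 under NR. With 3 samples per group these values do not decide whether the numbers pair samples. With the replicate block 3 and 8 genes were called under INT-747 and 5 had a positive WT slope. Without 1 library, genotype mean calls ranged from 0 to 748 higher and 0 to 475 lower, highest without Tg26 NR replicate 3, with 0 to 37 positive members higher, 0 to 2 negative members higher and 0 to 4 lower. The ranges were 0 to 88 and 0 to 107 under INT-747, 0 to 369 and 0 to 416 under NR (highest without Tg26 NR replicate 2), and 0 to 115 and 0 to 59 for the interaction. The WT slope, 3 and 0 genes, ranged from 0 to 35 and 0 to 24 (highest without WT NR replicate 3). It gave 67 and 22 genes with no filter, 136 and 76 with DESeq2 (3 members), and 6 and 3 with a treatment term. Trpv2 turned to 0.153 with the sex term and ranged from -0.341 to 0.161 without 1 library, and Krt20 from -0.655 to 1.78. The cause of these changes was not tested. Genes of a few counts, such as Krt20 at 2 counts in 1 library, are limited by depth.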

Other observations

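Markers of the parietal epithelium, the lining of Bowman's capsule, leaned towards the score although none is a member of either end. Of these markers Cldn1 and Cd44 are also on the injury list and Cp on the acute phase list, so the lists overlap. Of 8 measured genes 2 had r of at least 0.9, the median r was 0.856 (0.829 under TMM), and all 8 had a mean log2 fold change of Tg26 over WT above 0, of which 1 was called higher by edgeR with the sex term, where 4.54% of all genes were called higher and 3.3% lower. Without the female library the median r was 0.970. Of 20 genes of the unfolded protein response and the ATF4 pathway 0 were past 0.9, with a median r of -0.01, -0.265 under TMM and -0.374 without the female library. Their mean log2 fold change was nevertheless above 0 in 16 of 20, with a median of 0.24, and with the sex term edgeR called 6 higher and 1 lower. Circadian genes of a phase opposite to the clock output genes had a median mean log2 fold change of -1.47 over 4 genes, of which 3 were called lower with the sex term, and a median r of -0.175, -0.296 under TMM and 0.238 without the female library.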
